A study of Mus musculus with 12 samples.

Results

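The GABA-A receptor subunits described here are Gabra2, Gabra3, Gabra4, Gabra5, Gabrb1, Gabrb2 and Gabrd, chosen by gene symbol, which make up 7 of the 17564 genes in each table of expression values from the mouse ventral hippocampus (vHPC). All 7 were measured in both tables. GABA-A receptors are chloride channels opened by GABA, the main inhibitory transmitter of the brain, and each channel is built from 5 subunits, usually alpha and beta subunits joined by a gamma or a delta subunit. The alpha and the third subunit largely decide where the channel sits. Receptors with alpha 2 or alpha 3 and a gamma subunit gather at synapses and carry brief currents, whereas receptors with alpha 4 and delta, or with alpha 5, lie mostly outside synapses and carry the steady current that ambient GABA evokes. Beta subunits are part of both kinds.

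Wild-type (WT) mice and mice carrying 1 Met copy of the gene for brain-derived neurotrophic factor (labelled BDNF Val66Met, here BDNF het-Met) were given corticosterone (CORT), a glucocorticoid stress hormone, at 25 mg/l in drinking water with 1% ethanol, or 1% ethanol alone as vehicle (VEH). Treatment lasted 6 weeks from 2 months of age, all mice were males on a C57BL/6 background, and all 4 groups (each genotype with VEH or with CORT) drank ethanol. Each group had 3 libraries, 12 in all, each of RNA pooled from 2 animals, and the tissue was the vHPC of 1 brain side per animal. The question addressed was how oral CORT changed expression in each genotype, here for subunits of synaptic against extrasynaptic receptors.

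The values are those of the authors' joint limma-voom fit, and each log2 fold change is CORT minus VEH, above 0 where CORT was higher. Levels of single libraries were not analysed here, so each value stands for a group comparison, and its error is the standard error (SE) of that fit. The depth per library is unknown, with 35 to 40 M reads of 75 bp planned. A gene was called changed at an uncorrected p below 0.05. No gene of the 17564 passed a Benjamini-Hochberg adjusted p of 0.05 in WT or in BDNF het-Met mice by limma, where 672 and 2317 genes had an uncorrected p below 0.05, so each call below is an uncorrected one. The fit listed 7 residual degrees of freedom, where 12 libraries in 4 groups leave 8. The SE of the CORT effect in BDNF het-Met mice was 0.894 times that in WT among strongly expressed genes (the top expression quintile, median), and a comparison of 6 libraries against one of 5 gives a ratio of 0.894. Whether a WT library was left out of the fit was not tested. Fkbp5, a gene that glucocorticoid receptors switch on, was higher under CORT by 0.21 in WT and by 0.43 in BDNF het-Met mice on the log2 scale (uncorrected p 0.0343 and 0.000163 by limma), whereas Tsc22d3, another such gene, was at -0.26 in WT (uncorrected p 0.0415) and -0.07 in BDNF het-Met mice.

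Both beta subunits among the members were higher under CORT in BDNF het-Met mice, Gabrb1 1.21-fold and Gabrb2 1.13-fold, and neither the synaptic nor the extrasynaptic subunits changed past the threshold in either genotype. In WT none of the 7 members was called, where 3.83% of all genes were. In BDNF het-Met mice 2 of 7 were called, both higher, where 13.2% of all genes were called and 6.55% were called higher. The background was larger among strongly expressed genes: in the top expression quintile, which holds 6 of the 7 members (all but Gabrd), 16.1% of genes were called higher and 4.98% lower. Averaged over both genotypes with equal weight, the same 2 subunits rose, where 13.3% of all genes were called and 7.17% were called higher, and 18.4% of the top expression quintile were called higher. The difference of the CORT effect between genotypes passed the threshold for none of the 7, where 2.41% of all genes passed. By the rule of the study, which also asks for a fold change above 1.3, none of the 7 was a differentially expressed gene (DEG) in WT, where 1.25% of all genes were, or in BDNF het-Met mice, where 3.24% were.

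**Figure D1:**
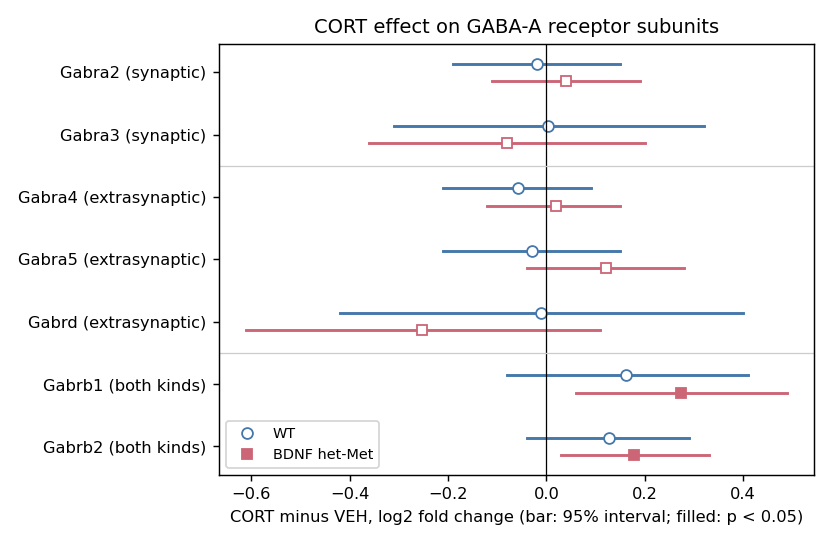
The CORT effect on each of the 7 subunits as a log2 fold change (CORT minus VEH, horizontal axis) with its 95% interval, for WT (blue circles) and BDNF het-Met mice (red squares), with filled symbols for an uncorrected p below 0.05. Gabrb1 at 0.27 and Gabrb2 at 0.18 in BDNF het-Met mice are the filled points, and every other interval includes 0.

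Subunit genes are clustered in the mouse genome. On chromosome 5 (GRCm38, GENCODE M21), Gabrg1 (70751047 to 70842617), Gabra2 (70957597 to 71095849), Gabra4 (71569749 to 71658308) and Gabrb1 (71658113 to 72149037) lie within 1.4 Mb. Gabrb1 lies on the forward strand and the other three on the reverse strand. In BDNF het-Met mice the log2 fold changes along the cluster were -0.15 for Gabrg1, 0.04 for Gabra2, 0.02 for Gabra4 and 0.27 for Gabrb1, and only that of Gabrb1 passed the threshold. Gabrb2 lies on chromosome 11 (42419757 to 42629028, forward) and Gabra5 on chromosome 7 (57407672 to 57510059, reverse). Gabra3 lies on chromosome X (72432681 to 72656848, reverse) and Gabrd on chromosome 4 (155384980 to 155398112, reverse).

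Gabra4 and Gabrb1 start head to head, and their spans overlap by 196 bases, of which 46 are exonic in both, 0.756% of the exonic bases of Gabra4 and 0.332% of those of Gabrb1. The libraries were stranded, but whether counting used strand was not given in the sources used here. A set of 3 windows is shown because Gabrb1 and Gabrb2 are the members that rose and Gabra4 is the neighbour across the shared start region that was not called. They come from RefSeq on GRCm38.p6, run 5′ to 3′ on the strand of the gene and span 250 bases before to 50 after an annotated start. Capitals mark TGTTCT, the reverse complement of the glucocorticoid receptor half-site AGAACA.
Gabrb1, chr5:71657671-71657970, forward: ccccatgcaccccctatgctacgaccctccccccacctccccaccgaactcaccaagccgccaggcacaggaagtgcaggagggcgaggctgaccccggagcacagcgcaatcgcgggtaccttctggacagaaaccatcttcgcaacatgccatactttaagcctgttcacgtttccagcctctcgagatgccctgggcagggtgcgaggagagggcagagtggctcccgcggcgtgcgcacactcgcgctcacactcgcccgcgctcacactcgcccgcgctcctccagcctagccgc
Gabra4, chr5:71658259-71658558, reverse: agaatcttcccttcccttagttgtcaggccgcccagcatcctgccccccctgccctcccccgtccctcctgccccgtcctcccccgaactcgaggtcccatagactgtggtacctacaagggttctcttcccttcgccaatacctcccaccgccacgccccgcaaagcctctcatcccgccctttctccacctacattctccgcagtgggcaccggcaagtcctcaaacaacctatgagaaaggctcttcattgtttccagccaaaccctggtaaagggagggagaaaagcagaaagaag
Gabrb2, chr11:42420190-42420489, forward: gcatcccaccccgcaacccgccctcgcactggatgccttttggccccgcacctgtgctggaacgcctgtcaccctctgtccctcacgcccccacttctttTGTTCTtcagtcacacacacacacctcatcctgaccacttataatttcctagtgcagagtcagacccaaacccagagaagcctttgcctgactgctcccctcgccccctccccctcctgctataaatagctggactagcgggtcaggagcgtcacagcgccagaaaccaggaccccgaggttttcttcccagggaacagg

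The Gabrb1 window held 25 CpG dinucleotides at 66.0% GC, the Gabra4 window 12 at 58.7% and the Gabrb2 window 11 at 59.0%, against medians of 7 and 52.7% over 32851 RefSeq windows of this length. RefSeq gave 10 such windows for 6 of the members and Gabrd was not among them. The second Gabrb1 window, at another annotated start, held 9 CpG at 50.3% GC. The Gabrb1 window printed here ends before the GENCODE start of the gene (71658113), and its last 50 bases were found in no GENCODE transcript of Gabrb1. The last 50 bases of the Gabrb2 window printed here were likewise in no GENCODE transcript of Gabrb2, whereas those of the Gabra4 window were in a transcript of Gabra4. Windows not printed here, of Gabrb1 (from 71699682) and Gabrb2 (from 42420951), had their last 50 bases in a transcript of their gene. The other windows ran from 0 CpG in both Gabra3 windows to 25 in that of Gabra2. The half-site AGAACA, read on both strands, was found in 2 of the 10 windows, both of Gabrb2, at positions -150 and -180 relative to their starts, and in 18.974% of all windows. The full glucocorticoid response element, an inverted pair of such half-sites searched with free bases between, was in none of the 10 and in 0.475% of all windows. The cAMP response element TGACGTCA was in none of the 10 and in 1.79% of all windows, and GCGTGGGCG, bound by EGR factors, in none of the 10 and in 0.612%. A match of letters is a description of the window and no evidence of binding.

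Levels of different genes were compared as mean CPM per kb of exon, the mean log2 CPM over libraries less the log2 of the exonic length. Gabra5 was the highest of the 15 measured GABA-A subunits at 74.8 CPM per kb (log2 6.22). Gabra2 at 33.6, Gabra3 at 31.8 and Gabrb1 at 27.5 CPM per kb came next among the members. Gabrb2 stood at 22.2 and Gabra4 at 20.3 CPM per kb. Gabrd was the lowest member at 6.49 CPM per kb, 1.64 log2 units below Gabra4. The gene for delta, the subunit that defines the neurosteroid-sensitive extrasynaptic receptor, was thus listed far below the gene for alpha 4, its usual partner. The spread over libraries was not analysed here, so neighbours in this order, such as Gabra2 and Gabra3 (0.08 log2 units apart), cannot be told apart. With the longest transcript as length, Gabra4 moved from 4.34 to 4.91 and Gabrb2 from 4.47 to 5.14 on the log2 scale, and Gabrb1 then stood ninth at 4.79, below both.

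**Figure D2:**
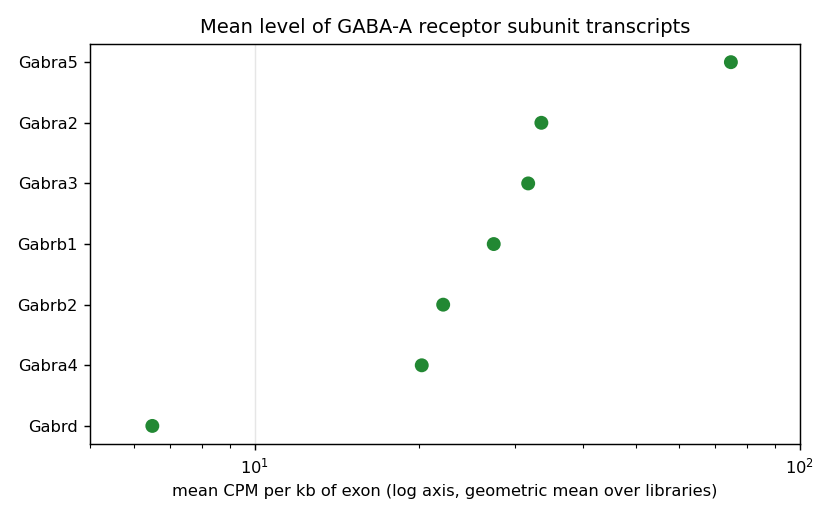
Mean level of the 7 subunit transcripts in CPM per kb of exon (log axis, geometric mean over libraries of all groups), 1 point per gene. Gabra5 is at the top at 74.8 and Gabrd is the lowest point at 6.49.

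Gabra2 encodes alpha 2, the synaptic subunit that is enriched at the axon initial segment of pyramidal cells and carries much of the calming action of benzodiazepines. Its log2 fold change was -0.02 ± 0.08 (SE) for WT and 0.04 ± 0.07 for BDNF het-Met mice (uncorrected p 0.808 and 0.583 by limma). The 95% intervals of the fold change were 0.876 to 1.11 in WT and 0.924 to 1.14 in BDNF het-Met mice, so a change above 1.3-fold lies outside both. Gabra3 encodes alpha 3, the other synaptic alpha subunit. Its log2 fold change was 0.003 ± 0.14 for WT and -0.08 ± 0.13 for BDNF het-Met mice (uncorrected p 0.984 and 0.545). Its intervals were wider than those of Gabra2, at 0.805 to 1.25 and 0.778 to 1.15 as folds. The median over both synaptic alpha subunits was -0.01 for WT and -0.02 for BDNF het-Met mice.

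Gabra4 encodes alpha 4, which pairs with delta in dentate granule cells and other forebrain neurons. Its log2 fold change was -0.06 ± 0.07 for WT and 0.02 ± 0.06 for BDNF het-Met mice (uncorrected p 0.416 and 0.757 by limma), and the fold interval was 0.865 to 1.07 in WT and 0.923 to 1.11 in BDNF het-Met mice. Gabra4 had the narrowest intervals of the members. Gabra5 encodes alpha 5, the subunit that hippocampal pyramidal cells use for steady inhibition, and some of it is found at synapses too. It was at -0.03 ± 0.08 for WT and 0.12 ± 0.07 for BDNF het-Met mice (uncorrected p 0.718 and 0.122). Its fold interval in BDNF het-Met mice, 0.974 to 1.21, included 1. Gabra5 shares 148 exonic bases, 4.98% of its exons, with the antisense gene Gm9962, whose log2 fold changes were 0.13 for WT and 0.04 for BDNF het-Met mice at a mean of -0.31 log2 CPM.

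Gabrd encodes delta. Its log2 fold change was -0.01 ± 0.19 for WT and -0.25 ± 0.16 for BDNF het-Met mice (uncorrected p 0.958 and 0.151 by limma). These were the largest errors of the 7, and the fold interval in BDNF het-Met mice, 0.655 to 1.08, includes both no change and a loss beyond 1.3-fold. Gabrd and Gabra4, the pair of the same receptor, were therefore measured with unlike precision. The extrasynaptic subunits had a median of -0.03 in WT, with all 3 below 0, and of 0.02 in BDNF het-Met mice, where they ran from -0.25 to 0.12. Without Gabra5 the median in BDNF het-Met mice was -0.12. Set side by side, the synaptic and the extrasynaptic medians were -0.01 and -0.03 in WT and -0.02 and 0.02 in BDNF het-Met mice, and the median of all genes was -0.003 and -0.006. No difference between the kinds was tested, since the members were chosen with results of these data known. The errors of different genes within a fit also share libraries.

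Gabrb1 encodes beta 1, a subunit that forms the GABA binding site together with an alpha subunit. In BDNF het-Met mice its log2 fold change was 0.27 ± 0.10, a fold of 1.21 with a 95% interval of 1.04 to 1.41 (uncorrected p 0.0183 by limma, Benjamini-Hochberg adjusted p 0.298). In WT it was 0.16 ± 0.11, a fold of 1.12 with an interval of 0.946 to 1.33 (uncorrected p 0.168). Gabrb2 encodes beta 2, a beta subunit found in many synaptic receptors of the adult brain. In BDNF het-Met mice Gabrb2 was at 0.18 ± 0.07, a fold of 1.13 with an interval of 1.02 to 1.26 (uncorrected p 0.0233, adjusted p 0.316). In WT it was at 0.13 ± 0.08, a fold of 1.09 with an interval of 0.972 to 1.23 (uncorrected p 0.124). Both values for WT lay above 0, and both fell short of the threshold. Pan-neuronal genes had a median of 0.07 in BDNF het-Met mice. With log2 fold changes centred on that median, Gabrb1 was at 0.20 (uncorrected p 0.0638) and Gabrb2 at 0.11 (uncorrected p 0.137), so neither call held. In bulk tissue, fewer cells of a type and less RNA per cell cannot be told apart.

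Averaged over both genotypes, Gabrb1 rose by 0.22 ± 0.07 on the log2 scale, 1.16-fold, with a 95% interval of 0.06 to 0.38 for the log2 value (uncorrected p 0.0133 by the limma errors, adjusted p 0.267). Gabrb2 rose by 0.15 ± 0.05, 1.11-fold, with an interval of 0.04 to 0.27 for the log2 value (uncorrected p 0.0122, adjusted p 0.260). Centred on pan-neuronal genes, the average for Gabrb2 was 0.11 (uncorrected p 0.0548), so that call did not hold. For the synaptic alpha subunits the average was 0.01 ± 0.05 for Gabra2 and -0.04 ± 0.10 for Gabra3. For the extrasynaptic subunits it was -0.02 ± 0.05 for Gabra4, 0.05 ± 0.05 for Gabra5 and -0.13 ± 0.12 for Gabrd. By this average 13 of the 17564 genes passed an adjusted p of 0.05, and no subunit was among them.

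Although the beta subunits were called in BDNF het-Met mice and not in WT, the effect was not shown to differ between the genotypes. The difference (BDNF het-Met minus WT) was 0.11 ± 0.15 for Gabrb1 and 0.05 ± 0.10 for Gabrb2 on the log2 scale (uncorrected p 0.471 and 0.618 by the limma errors). Their 95% intervals ran from -0.22 to 0.44 and from -0.17 to 0.28. The remaining differences were 0.06 ± 0.10 for Gabra2, -0.08 ± 0.19 for Gabra3, 0.08 ± 0.09 for Gabra4, 0.15 ± 0.11 for Gabra5 and -0.24 ± 0.25 for Gabrd. The smallest uncorrected p of the 7 was 0.190, that of Gabra5, and adjusted p was 0.9999 for each. The interval for Gabra4, the narrowest, was -0.12 to 0.28, and that for Gabrd, the widest, was -0.79 to 0.31.

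The tables also carry a joint F over 3 contrasts, and subtracting both squared CORT t values from 3 times F leaves a remainder for the third contrast. No column names that contrast, which is taken here to be the one between genotypes, and the remainder is called the genotype statistic. The subtraction was not exact, since 610 genes had a remainder under 0, down to -0.118. The statistic was 5.73 for Gabra5, a value that 2.28% of all genes reached, and 3.40 for Gabra3, reached by 6.98%. The other members lay between 0.0655 (Gabra4) and 0.723 (Gabrd), against a median of 0.433 over all genes. The remainder is unsigned and untested, so whether Gabra5 was higher or lower in BDNF het-Met mice cannot be read from it.

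Of the 12 other GABA-A subunits listed, 8 were measured, and Gabra6, Gabrp, Gabrr1 and Gabrr3 were not among the genes of the tables. None of the 8 was called in WT or in BDNF het-Met mice. Gabrg3, a gamma subunit, passed the threshold for the average over genotypes at 0.11 ± 0.05 (uncorrected p 0.0499 by the limma errors, adjusted p 0.374). Gabre, at a mean of -0.93 log2 CPM the least abundant, was at 1.29 ± 0.63 in WT (uncorrected p 0.0655).

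Among 14 genes for anchoring and trafficking of the receptor, 4 rose in BDNF het-Met mice and 1 rose in WT, and none fell in either. Of all genes, 6.55% were called higher in BDNF het-Met mice, and of the top expression quintile 16.1% were. Shisa7, an auxiliary protein that binds GABA-A receptors and aids their trafficking, rose by 0.22 ± 0.09 in WT (uncorrected p 0.0338 by limma) and by 0.26 ± 0.08 in BDNF het-Met mice (uncorrected p 0.00925), and its average over genotypes was 0.24 ± 0.06 (uncorrected p 0.00247, adjusted p 0.203). Of the 43 measured pathway genes that are no members, Shisa7 lay nearest to Gabrb1 in the plane of both log2 fold changes, 0.061 log2 units away. Iqsec3, an exchange factor of inhibitory synapses, rose by 0.15 ± 0.06 in BDNF het-Met mice (uncorrected p 0.0279) and by 0.11 ± 0.04 for the average, and was the gene nearest to Gabrb2, 0.067 away. Gphn, which encodes the scaffold gephyrin of inhibitory synapses, rose by 0.09 ± 0.04 in BDNF het-Met mice (uncorrected p 0.0450). The median of the 14 genes was 0.04 for WT and 0.05 for BDNF het-Met mice.

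Among 8 genes for making, packaging, taking up and breaking down GABA, none was called in WT and 2 were called in BDNF het-Met mice, in opposite directions, where 13.2% of all genes and 21.0% of the top expression quintile were called. Gad1, which encodes a GABA-making enzyme, rose by 0.12 ± 0.05 (uncorrected p 0.0421 by limma) and by 0.09 ± 0.04 for the average (uncorrected p 0.0307). Slc6a11, the GABA transporter GAT-3 of astrocytes, fell by 0.18 ± 0.06 in BDNF het-Met mice on the log2 scale (uncorrected p 0.00819), was at -0.01 ± 0.06 in WT, and fell by 0.10 ± 0.04 for the average (uncorrected p 0.0416). Its difference between genotypes was -0.17 ± 0.09 (uncorrected p 0.0723). Slc6a11 was also the gene nearest to Gabrd, 0.068 away. Of 5 genes of the GABA-B receptor, 1 was called in WT and for the average, where 3.83% and 13.3% of all genes were. This was Kctd16, an auxiliary subunit, which rose in WT by 0.20 ± 0.08 (uncorrected p 0.0314 by limma). Kctd16 rose by 0.16 ± 0.05 for the average (uncorrected p 0.0159, adjusted p 0.278) and was at 0.11 ± 0.07 in BDNF het-Met mice.

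The gradient that GABA-A receptors use depends on chloride transport. Slc12a5, which encodes the neuronal chloride exporter KCC2, was at 0.10 ± 0.05 in WT (uncorrected p 0.0514 by limma), rose by 0.09 ± 0.04 in BDNF het-Met mice (uncorrected p 0.0452) and rose by 0.10 ± 0.03 for the average (uncorrected p 0.00954, adjusted p 0.249). The importer Slc12a2 and the kinase Stk39 were not called. Neurosteroids made from progesterone act on delta receptors with particular strength, and Srd5a1, the reductase of the first step, fell by 0.25 ± 0.09 in WT (uncorrected p 0.0180) and by 0.22 ± 0.08 in BDNF het-Met mice (uncorrected p 0.0128). Its average was -0.24 ± 0.06 (uncorrected p 0.00197, adjusted p 0.197), the smallest adjusted p among the pathway genes. The other 4 genes of that list were not called in either genotype. Over the 43 pathway genes apart from the members, 2 were called higher and 1 lower in WT, and 6 higher and 2 lower in BDNF het-Met mice. For the average these counts were 7 and 2, where 13.3% of all genes and 22.3% of the top expression quintile were called. The share called in BDNF het-Met mice, 8 of 43, lay between the 13.2% of all genes and the 21.0% of the top expression quintile, so it was near the background. In WT 3 of 43 were called, where 3.83% of all genes and 4.87% of that quintile were.

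**Figure D3:**
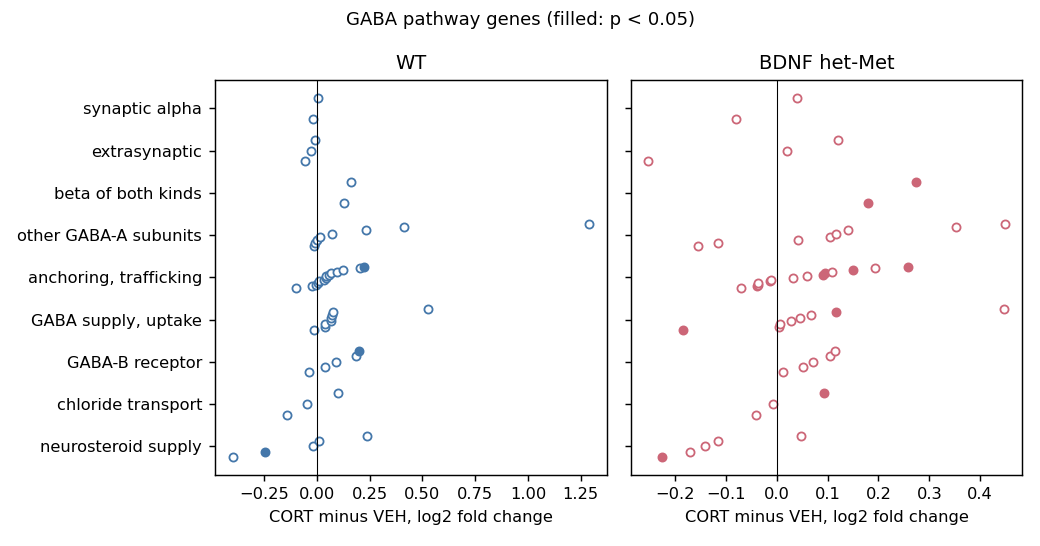
CORT effect (log2 fold change, CORT minus VEH) of each gene of the GABA pathway lists in WT (left) and BDNF het-Met mice (right), 1 point per gene, filled for an uncorrected p below 0.05; the 2 panels have different scales. The filled points for BDNF het-Met mice include Gabrb1, Gabrb2 and 4 anchoring genes on the right of 0, and Slc6a11 and Srd5a1 on the left.

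For Gabra3, Gabra4 and Gabra5 the nearest pathway genes in the same plane were Dbi, the endozepine gene, for Gabra3 (0.035 log2 units away), Stk39 for Gabra4 (0.027) and Kctd12 for Gabra5 (0.017). The likeness rests on only 2 comparisons per gene.

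**Figure D4:**
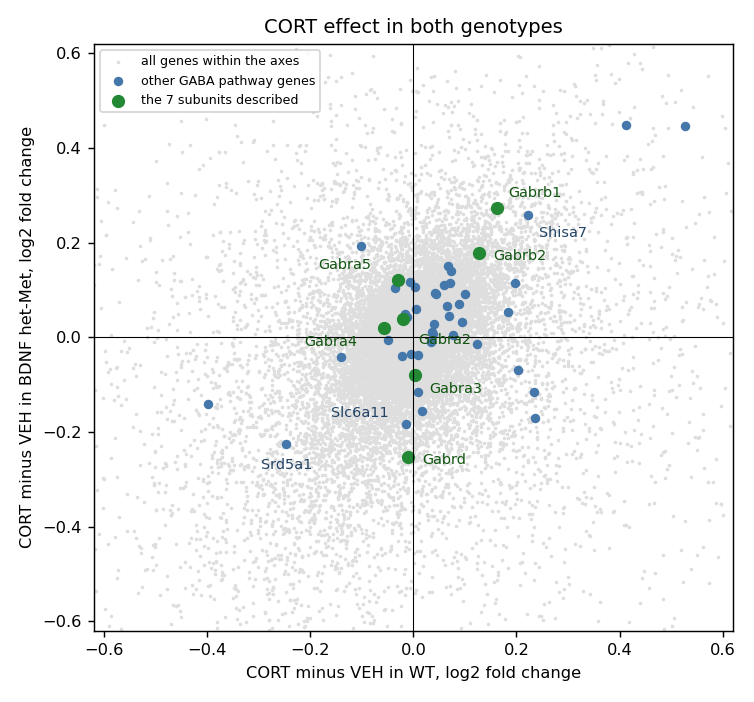
CORT effect in WT (horizontal) against BDNF het-Met mice (vertical), both as log2 fold change, for the 7 subunits (green), other GABA pathway genes (blue, 42 of 43 within the axes; Gabre lies outside) and 16955 of all 17564 genes (grey). Gabrb1 and Gabrb2 lie above 0 on both axes with Shisa7, and Gabrd lies lowest of the subunits at -0.25.

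Cell type markers moved beside these values, and their part in the subunit results was not tested. All 10 dentate granule cell markers were measured, at mean levels of 2.62 to 7.41 log2 CPM. So were all 10 CA1 and CA3 pyramidal cell markers, at 3.84 to 8.41. Markers of thalamus, striatum (0.94 to 6.39) and choroid plexus (2.19 to 9.45) were measured at overlapping levels. The identity of the tissue can therefore not be read from these levels. In BDNF het-Met mice 8 of 12 pan-neuronal markers lay above 0 with 3 called higher, 8 of 10 pyramidal cell markers lay above 0 with 4 called higher (median 0.24), and 9 of 10 dentate markers lay above 0 with none called (median 0.20). In WT the medians of the 3 lists were 0.02, -0.01 and 0.07. Glial markers were lower in BDNF het-Met mice, with 4 of 7 astrocyte, 3 of 8 oligodendrocyte and 6 of 8 microglia markers called lower and medians of -0.25, -0.32 and -0.50, although 1 astrocyte marker was called higher. The WT medians were -0.05, -0.07 and -0.20, with 1 astrocyte marker called lower, 1 called higher, and none of the other two lists. The 12 interneuron markers had medians of 0.04 and 0.02, and in BDNF het-Met mice 2 of them were called higher and 2 lower. Of all 17564 genes, 1151 (6.55%) were called higher and 1166 lower in BDNF het-Met mice, and 396 and 276 in WT. In the top expression quintile 16.1% were called higher and 4.98% lower in BDNF het-Met mice, and 4.10% and 0.769% in WT. Markers of neighbouring tissue were at medians of -0.14 for WT and -0.16 for BDNF het-Met mice for thalamus, 0.01 and -0.35 for striatum, and -1.48 and 0.09 for choroid plexus, whose median SE was 1.54 and 1.44.

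**Figure D5:**
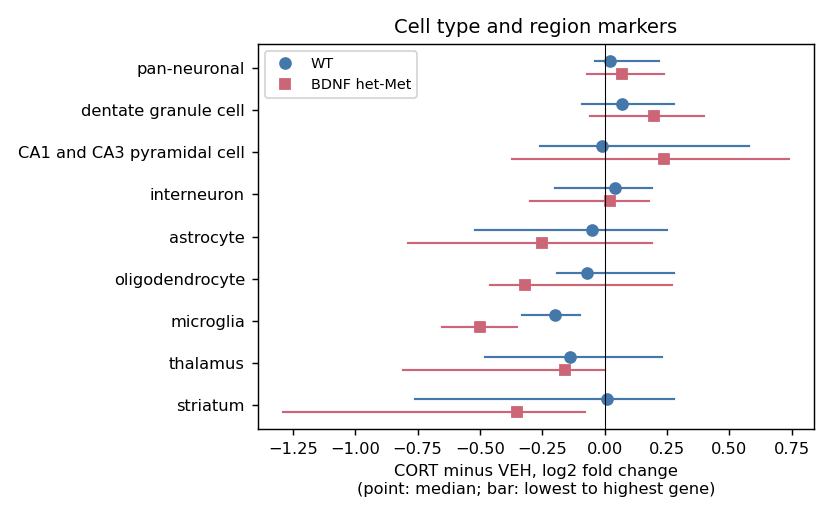
Median (points) and range from the lowest to the highest gene (bars) of the CORT effect, as log2 fold change, for 9 marker lists in WT (blue circles) and BDNF het-Met mice (red squares). The microglia medians are -0.20 and -0.50, and the pyramidal cell median is 0.24 in BDNF het-Met mice; choroid plexus is not drawn.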

How the data were processed

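RNA-seq of the vHPC gave 12 libraries in 4 groups, mapped to groups by genotype and treatment in the labels. The authors aligned reads with STAR to mm10 (GRCm38), counted them with featureCounts and fitted limma-voom. Versions, the filter on weak genes, the normalization factors, the strand setting and the treatment of multi-mapped reads were not stated (not given in the sources used here). Deposited log2 values are mean log2 CPM, the fold change of VEH against CORT and its SE. The deposited p-values are uncorrected, adjusted and joint. The deposited scores are the moderated t and F, and the deposited degrees of freedom are 7 (residual) and 10.91 (total). These columns are the authors' own comparisons and hold no value of a single library, so no depth, interval of counting error or replicate check was possible.

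The sign was turned so that positive is higher under CORT, and the printed SE is the log2 fold change over the moderated t. This direction was taken from the comparison names. The difference between genotypes and the equal-weight average used the root of the summed squared SEs and a two-sided t distribution at the total degrees of freedom. Benjamini-Hochberg adjustment was over all 17564 genes. Both calculations were run on simulated data (Python 3.11.15, NumPy 2.4.6, SciPy 1.17.1, pandas 2.3.3, matplotlib 3.10.9). The simulated errors followed the model that the calculations assume, so this was a check of the code and could not test that model. Replicates are the pooled libraries, and p-values measure the spread between these. Alternatives were the ordinary SE, centring, a fold minimum, adjusted p, inverse-variance weights, mean for median, leaving out Gabra5 and another gene length.

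The members, lists and tests were chosen with earlier results of these data known. Named were all 7 members, each pathway gene with an uncorrected p below 0.05 in a genotype or for the average, each listed gene absent from the tables, and the pathway gene nearest to each member. Some genes that this rule takes are counted but are not reported here by name. Gene models came from GENCODE M21 on GRCm38. Of 54 listed pathway genes, the 50 measured ones were looked up there, and all 50 were found. Of 75-base words in the transcripts, 2.756% were shared with another gene for Gabra5 (Gm9962), 0.205% for Gabra2 and none for the other five members.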

Additional observations from a re-analysis of the deposited data

How the results depend on the processing

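Of the 7 subunits, 2 were called in BDNF het-Met mice and 2 for the average over genotypes. In BDNF het-Met mice the number was 1 with ordinary SEs (Gabrb1 at an uncorrected p of 0.0521) and 1 after centring on the expression quintile (Gabrb2 at 0.14, uncorrected p 0.0577). It was 0 after centring on pan-neuronal genes, 0 with a fold change above 1.3, 0 by adjusted p over all genes and 0 by adjusted p over genes of at least 1 log2 CPM. For the average it was 1 after centring on pan-neuronal genes (Gabrb2 at 0.11, uncorrected p 0.0548), 0 with a fold change above 1.3 and 0 by either adjusted p, and 2 with ordinary SEs, centring on the expression quintile or inverse-variance weights. The counts of 0 in WT and for the difference between genotypes stayed 0 under all of their alternatives that were run.

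Values near 0 turned sign. After centring on the expression quintile, Gabra3 was at -0.016 and Gabrd at 0.003 in WT, Gabra4 at -0.016 in BDNF het-Met mice and Gabra2 at -0.017 for the average. After centring on pan-neuronal genes, Gabra3 was at -0.014 in WT, Gabra2 at -0.031 and Gabra4 at -0.051 in BDNF het-Met mice, Gabra2 at -0.033 for the average, and the difference between genotypes at -0.001 for Gabrb2. Without Gabra5 the extrasynaptic median was -0.12 in BDNF het-Met mice and -0.08 for the average. With the longest transcript as length, Gabra4 stood at 4.91 and Gabrb2 at 5.14 log2 CPM per kb.

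No paired analysis was possible because the tables analysed here hold fitted comparisons and no values of single libraries. For the same reason leaving out each replicate in turn was not run. The precision of the fit limits Gabrd most, with 95% half-widths of 0.41 for WT and 0.36 for BDNF het-Met mice on the log2 scale.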
